A study of Mus musculus with 6 samples.

Results

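The meninges are sheets of fibroblasts that wrap the brain and lay down fibrillar collagens and small proteoglycans. In the developing mouse the forkhead factors Foxc1 and Foxc2 mark the meningeal lineage, and the meninges around the hindbrain release retinoic acid and signals that hold cells at the cerebellar surface. Here 10 genes of these cells were followed: Col1a1, Col1a2, Col3a1, Dcn, Lum, Ogn, Foxc1, Foxc2, Aldh1a2 and Igfbp2. Members were the probes, other than controls, whose gene name in the scanner files was 1 of these symbols, which gave 10 of the 34797 gene names and 11 of the 55681 probes on the array.

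Expression was measured on 6 single-colour arrays of cerebellum from C57BL/6J pups at postnatal day 1 (P1). Their mothers ate an AIN-93G amino acid-based diet with folic acid (FA) at 20 mg/kg or, in the control group, 2 mg/kg. The diets were begun before mating and kept through pregnancy. Both held FA, and the methods describe the control dose as the basal level recommended for rodents and the higher dose as above it. Each sex had 1 array at 2 mg and 2 arrays at 20 mg, replicates 1 and 2, and each array held RNA pooled from 3 pups of different dams. The tissue field of the labels reads whole brain, whereas titles and methods name the cerebellum, and that name is used here. The labels add that RNA at 20 mg was extracted again from another batch of pooled pups, without saying which replicate that is, and they give no such repeat for 2 mg. The spread between pools is known at 20 mg alone and holds that batch as well, and with so few arrays every value is imprecise.

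The arrays were not equal in quality. On the array labelled female 20 mg replicate 2, hereafter the dim array, 23.3% of probes were well above background by the scanner software, against 51.1% to 71.9% on the other 5, and its mean rank correlation with the others was 0.658, against 0.861 to 0.889. It was scanned on an earlier day with male 20 mg replicate 1, on another slide than both 2 mg arrays and female 20 mg replicate 1. Male 20 mg replicate 2 lay on a slide of its own. Of the 10 markers each of granule cells and of Purkinje cells and interneurons, all were well above background on at least 2 arrays, as were the 10 forebrain markers, whose median deviation from their own means ran from -1.17 to 1.29 between arrays.

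All 10 members were well above background on 5 arrays, and 6 of them on all 6. Lum, Ogn, Foxc1 and Foxc2 were not well above background on the dim array. There the processed signals of the members lay between 10.4 and 241, against 541 to 28470 on the other female 20 mg array. Of the 34 other fibroblast genes listed, 33 were well above background on at least 2 arrays. In pooled tissue, fewer fibroblasts and less RNA per fibroblast cannot be told apart.

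The probes are 60 bases long. The last 30 bases of those of the paired collagen chains and of the paired forkhead factors, the genes on which the results turn, are shown with runs of 6 or more A in capitals.
Col1a1 (chr11:94813115-94813174): gtgcattcaaccttaccAAAAAAgAAAAAA
Col1a2 (chr6:4490619-4490678): tctgtttcaaataagtgaactcaacctaaa
Foxc1 (chr13:31902423-31902482): aaaatttgatcattgttaaaggattgctgc
Foxc2 (chr8:123642693-123642752): acctgtgtttgtcttatgtgatctcagtgt
Each position is that of the whole probe in mm9, by the array design. The Col1a1 probe holds 31 A among its 60 bases, and the probes of the other 9 members hold 12 to 23. The GC content of the 11 probes was 35% to 55%. The second probe of Igfbp2 (chr1:72898677-72898736), read in its first frame, is open up to a stop codon at its last bases, shown in capitals, so it is written in the sense of the transcript and ends with the coding sequence.
Igfbp2: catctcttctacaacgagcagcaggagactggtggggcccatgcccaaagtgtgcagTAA

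Type I collagen, the main fibre of the meninges, is built from the products of Col1a1 and Col1a2, and Col3a1 encodes the chain of type III collagen found in the same fibres. Values are log2 normalized signals, quantile normalized over the 6 arrays. Col1a1 (chromosome 11) stood at 11.84 on the female 2 mg array and at 10.98 and 12.00 on the female 20 mg arrays. In males it stood at 11.95 at 2 mg and at 12.51 and 11.49 at 20 mg. In both sexes the 2 mg array lay between the 20 mg arrays.

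Col1a2 (chromosome 6) stood at 13.15 on the female 2 mg array and at 12.44 and 11.19 on the female 20 mg arrays, both lower. The mean difference was -1.33, a 2.51-fold lower level, with an SD between the 20 mg pools of 0.88 (n = 2). In males it stood at 13.21 at 2 mg and at 12.96 and 13.23 at 20 mg, a difference of -0.12. The female difference was past 2.5-fold through the dim array and was -0.67 without it.

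Col3a1 (chromosome 1, 45405589 to 45405648) stood at 12.03 on the female 2 mg array and at 11.36 and 10.69 on the female 20 mg arrays, a 2.01-fold lower mean with an SD of 0.48 on the log2 scale (n = 2). In males it stood at 12.36 at 2 mg and at 13.26 and 11.31 at 20 mg, with an SD of 1.38 (n = 2). The pools thus lay on opposite sides of the 2 mg array in males and below it in females. Its range over the 6 arrays, 2.57, was the widest of the 10 members.

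Dcn, Lum and Ogn encode decorin, lumican and osteoglycin, small leucine-rich proteoglycans that bind collagen fibres and set their spacing. Dcn (chromosome 10, 96980233 to 96980292) stood at 12.16 on the female 2 mg array, at 12.19 and 11.12 on the female 20 mg arrays, at 12.43 on the male 2 mg array, and at 12.16 and 11.76 on the male 20 mg arrays. Both male 20 mg pools were lower, by a mean of -0.47 with an SD of 0.28 (n = 2), and among the female pools the dim array alone was lower. Lum (chromosome 10, 97035210 to 97035269) stood at 8.50 on the female 2 mg array, at 8.84 and 8.63 on the female 20 mg arrays, at 9.10 on the male 2 mg array, and at 9.30 and 7.70 on the male 20 mg arrays. Lum was the one member with a higher mean at 20 mg in females, by 0.24, and in males its pools lay on opposite sides of the 2 mg array, at 0.20 and -1.40 from it. Ogn (chromosome 13, 49719549 to 49719608) stood at 9.19 on the female 2 mg array, at 8.55 and 9.15 on the female 20 mg arrays, at 9.07 on the male 2 mg array, and at 9.66 and 8.62 on the male 20 mg arrays. Its mean differences were -0.35 in females and 0.07 in males, both within the SD between pools, 0.42 and 0.73 (n = 2 each).

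Foxc1 and Foxc2 encode related forkhead transcription factors, of which Foxc1 is needed for the meninges to form. Foxc1 (chromosome 13) stood at 9.55 on the male 2 mg array and at 8.41 and 7.81 on the male 20 mg arrays. Both male pools were lower, by -1.14 and -1.74, a mean of -1.44 with an SD of 0.43 (n = 2), which is 2.71-fold. In females it stood at 9.56 at 2 mg and at 9.33 and 8.18 at 20 mg, with a mean difference of -0.81 and an SD of 0.81 (n = 2). Foxc1 was thus lower on all 4 arrays at 20 mg than on the 2 mg array of its sex, by 0.23 on the female array that was not dim.

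Foxc2 (chromosome 8) stood at 8.17 on the female 2 mg array and at 7.16 and 7.78 on the female 20 mg arrays. In males it stood at 7.57 at 2 mg and at 8.56 and 7.09 at 20 mg, on opposite sides of the 2 mg array. The female difference was -0.70 with an SD of 0.44 (n = 2), 1.63-fold, and was measured well above background on 1 of its 2 arrays at 20 mg. In the authors' deposited value table Foxc2 lay at the lowest value of the dim array, 5.23, the one member at that value on any array. That value was also the median of all probes on the dim array, so a large share of them lay there. The female difference of Foxc2 in the deposited value table was -2.01.

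Aldh1a2 encodes the dehydrogenase that makes retinoic acid in the meninges, and Igfbp2 a secreted binding protein for insulin-like growth factors. Aldh1a2 (chromosome 9, 71143931 to 71143990) stood at 10.08 on the female 2 mg array, at 8.99 and 9.95 on the female 20 mg arrays, at 9.57 on the male 2 mg array, and at 10.17 and 9.31 on the male 20 mg arrays. Its mean differences, -0.60 in females and 0.17 in males, were within the SD between pools, 0.68 and 0.61 (n = 2 each). Igfbp2 by its brighter probe (chromosome 1, 72898813 to 72898872) stood at 12.40 on the female 2 mg array, at 12.78 and 11.46 on the female 20 mg arrays, at 12.53 on the male 2 mg array, and at 13.41 and 12.62 on the male 20 mg arrays. It was higher on both male 20 mg arrays, by a mean of 0.49 with an SD of 0.55 (n = 2), and the second probe gave 0.65. The pair of Igfbp2 probes moved together over the 6 arrays, with r = 0.991.

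**Figure D1:**
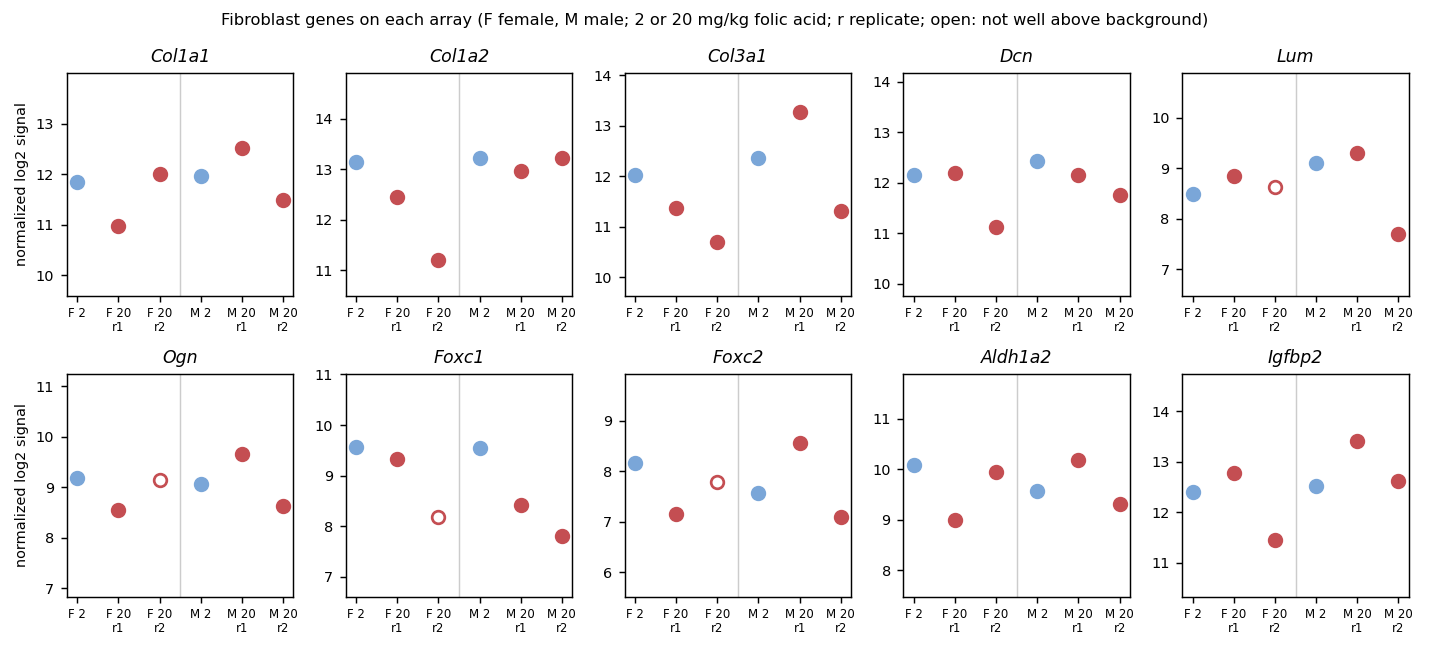
Normalized log2 signal of each gene on each of the 6 arrays (F female, M male, 2 or 20 mg/kg FA, r replicate), with every panel spanning the same number of log2 units. Blue points are 2 mg arrays, red points 20 mg arrays, and open points were not well above background, which holds for Lum, Ogn, Foxc1 and Foxc2 on female 20 mg replicate 2.

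The main comparison asked whether these genes differed between 20 mg and 2 mg FA in each sex. By the rule of the study's methods, a mean difference of 2.5-fold after a filter that keeps probes of high variance, 0 of 10 members were called in males and 0 of 10 in females. Over all probes this rule called 2.17% lower and 1.42% higher in males, and 10.3% lower and 8.65% higher in females. The filter kept 27.4% of all probes and 0 of the 10 members. Without it, Foxc1 in males and Col1a2 in females were past 2.5-fold, and the other 8 members were past it in neither sex. The share of all probes past 2.5-fold without the filter is not given here, so these genes stand without a background. The members just inside and just outside that threshold were Col1a2 in females, at 2.51-fold, and Col3a1 in females, at 2.01-fold.

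In females 9 of 10 members had a lower mean at 20 mg, 6 of them on both arrays, and Lum was higher on both. Of these, Ogn, Foxc1, Foxc2 and Lum were not well above background on the dim array. Without that array 7 members were lower and 3 higher in females. In males 5 were lower and 5 higher in the mean, and for 7 of 10 the pools lay on opposite sides of the 2 mg array. Foxc1 and Dcn were lower on both male 20 mg arrays and Igfbp2 higher on both. The shares of all probes lower in the mean, on the same side on both arrays or on opposite sides are not given here. The median difference of the members was -0.56 in females, where that of all probes measured was -0.21, and -0.01 in males, where it was -0.04. With each array shifted to a common 75th percentile, the female median of all probes became 0.45 and that of the members -0.49, again with 9 of 10 lower.

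In the median the differences were smaller than those of all probes measured, which were not matched to the members for brightness. The median absolute difference of the members was 0.21 in males and 0.56 in females, against 0.43 and 0.74 over the 37211 probes that at least 2 arrays measured well above background. The median SD between the 20 mg pools was 0.67 in males and 0.70 in females for the members, against 0.73 and 1.04 over those probes. The difference was larger than the SD between pools for 2 members in males, Foxc1 and Dcn, and for 4 in females, Col1a2, Col3a1, Lum and Foxc2. The share of all probes for which it was larger is not given here.

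The limma fit over all 6 arrays, with the Benjamini-Hochberg adjustment over 37211 probes, called 0 members in males, in females, over both sexes and for the dependence of the dose difference on sex, and it called 0% of all probes in each. The smallest adjusted p of a member in limma was 1 within each sex. No member had an unadjusted p under 0.05 in limma. Of the 37211 probes, 74 had one in males, 161 in females, 145 over both sexes and 51 for the dependence on sex. Each count is far below a 0.05 share of the probes, so these p-values were conservative. That no member had one therefore carries little weight. The 95% intervals of the members' differences within a sex reached 2.04 to 4.08 on the log2 scale to either side, and all 10 reached past a 2.5-fold fall in each sex. The fit could therefore not tell a fall of that size from no difference for any member. Its intervals draw on the variance of all probes fitted, the dim array included, with 19.0 prior degrees of freedom against 2 residual. Over both sexes the difference of Foxc1 was -1.12 with a standard error of 1.12 and an interval from -3.45 to 1.21. That of Col1a2 was -0.72 with a standard error of 0.69 and an interval from -2.17 to 0.72.

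**Figure D2:**
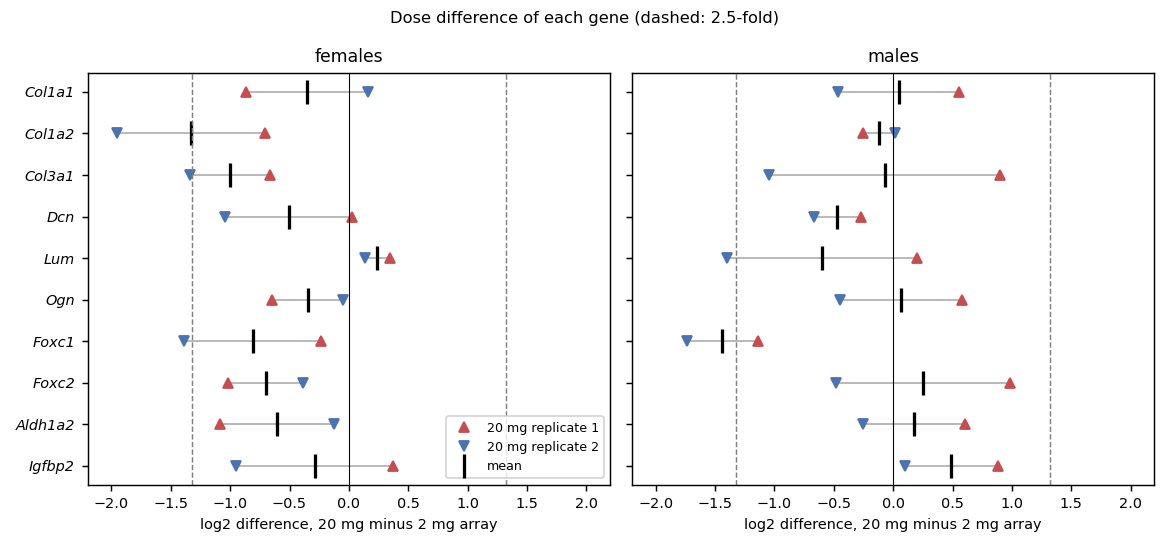
Log2 difference of each gene between a 20 mg array and the 2 mg array of its sex, with triangles for the replicates, a black bar for their mean, and dashed lines at 2.5-fold. In males Foxc1 lies at -1.14 and -1.74 and 7 of 10 genes straddle 0, while in females 6 of 10 lie below 0 on both arrays. Of those 6, Ogn, Foxc1 and Foxc2 were not well above background on female 20 mg replicate 2.

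Slide and scan day could be held fixed for part of the comparison. On the first slide, normalized alone, female 20 mg replicate 1 was lower than the female 2 mg array by 0.83 for Col1a1, 0.70 for Col1a2 and 0.65 for Col3a1. It was also lower by 0.66 for Ogn, 1.09 for Foxc2 and 1.09 for Aldh1a2, and Foxc1 differed by -0.24. Dcn, Lum and Igfbp2 were not lower there, with 0.03, 0.35 and 0.37. The median over members was -0.65, with 0.03 over all probes measured, and between the male and female 2 mg arrays of that slide the median over members was 0.09, with single genes from -0.65 to 0.61. With 1 array a group on that slide there is no test.

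With scan day as a term in the limma fit the median of the members over both sexes was -0.61, in place of -0.22, and with slide as a term it was -0.23, with 0 members called in either. On the arrays of the later scan day alone, Foxc1 in males differed by -1.73 and passed both the filter and the 2.5-fold threshold. Without the dim array it did so too, at -1.46. Under normexp background correction Foxc2 in females did so, at -1.36, and it did in the deposited value table. For these calls the share of all probes called in the same sex is not given here.

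**Figure D3:**
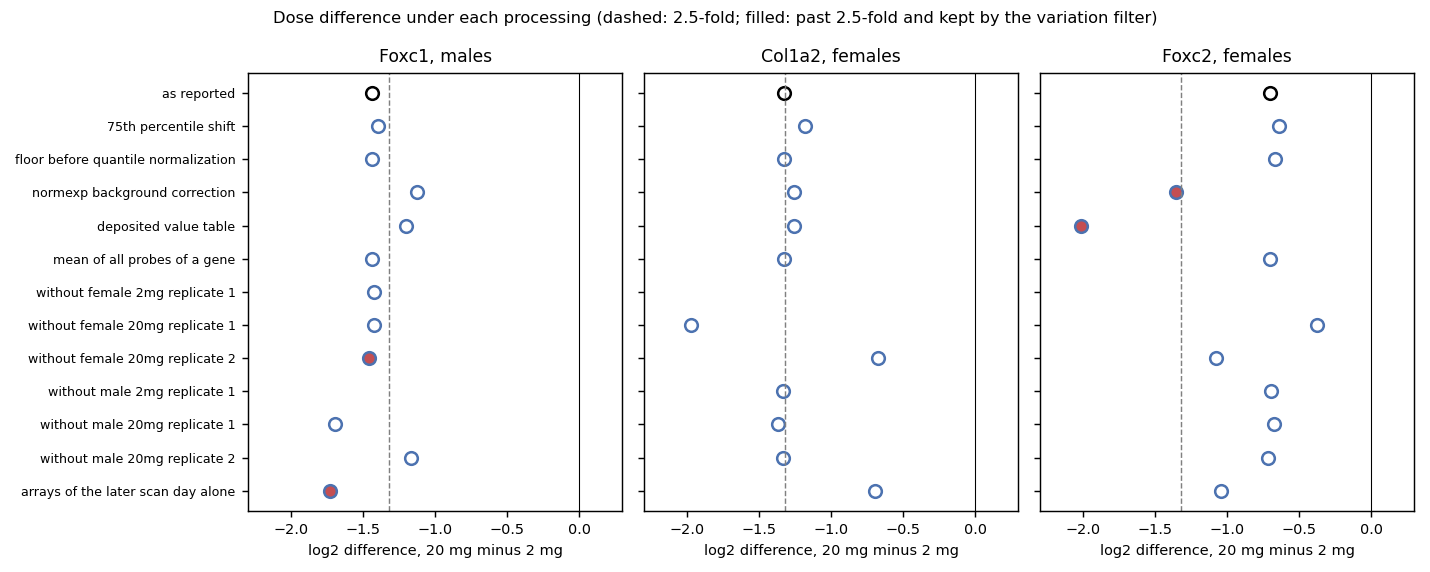
Log2 difference, 20 mg minus 2 mg, of Foxc1 in males and of Col1a2 and Foxc2 in females under each processing (rows), with the value as reported in black. The dashed line marks 2.5-fold and filled points also passed the variation filter. Foxc1 spans -1.73 to -1.12, Col1a2 -1.97 to -0.67 and Foxc2 -2.01 to -0.38.

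Whether the genes rose and fell together over the arrays was described by the correlation of each of their 45 pairs over the 6 arrays. Of the pairs, 36 had r above 0, and the median r was 0.417 (median Spearman's rho 0.257), with a range from -0.19 to 0.963. Over all pairs of the 37211 probes the median r was 0.029 and 51.2% were above 0. After the Benjamini-Hochberg adjustment over 45 pairs, 0 pairs passed 0.05 in the exact two-sided permutation test over the 720 orders of the arrays, where 6 had an unadjusted p under 0.05 and the smallest adjusted p was 0.0875. The arrays share dose, sex, slide and scan day, which their order in such a test does not keep.

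The 6 pairs with an unadjusted p under 0.05 all lay among Col1a1, Ogn, Foxc2 and Aldh1a2, a set seen in these values and given no test of its own. Ogn and Foxc2 had r = 0.963 and rho = 0.943, with exact permutation p = 0.00278 and 0.0167, adjusted to 0.0875 and 0.25. Col1a1 and Ogn had r = 0.952 and rho = 0.829, with exact permutation p = 0.00694 and 0.0583, adjusted to 0.0875 and 0.525. These genes were high on male 20 mg replicate 1 and low on female 20 mg replicate 1 and male 20 mg replicate 2, and the 2 mg arrays lay between these for each of them.

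With the 2 arrays farthest from the median of the first gene left out, r was 0.918 for Ogn with Foxc2, 0.911 for Col1a1 with Ogn, 0.960 for Foxc2 with Aldh1a2 and 0.887 for Ogn with Aldh1a2. It was 0.678 for Col1a1 with Aldh1a2 and 0.675 for Col1a1 with Foxc2. On the 4 arrays of the later scan day these pairs had r between 0.683 and 0.942. Pairs with r above 0.84 made up 9.60% of all probe pairs, and 6 of the 45 here. That threshold lies just below the lowest r of these 6 pairs over the 6 arrays, 0.850, so the count of 6 follows from it. The earlier scan day held 2 arrays, too few for a value.

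Col1a1 and Col1a2, whose products join in 1 trimer, had r = 0.0122 over the 6 arrays and rho = -0.257, with exact permutation p = 0.975 and 0.658, adjusted to 0.993 and 0.926. Without the dim array, where Col1a1 was at 12.00 and Col1a2 at its lowest level, 11.19, their r was 0.532. The reverse held for Col1a2 with Dcn, at 0.799 over 6 arrays and -0.16 without the dim array, and for Col1a2 with Igfbp2, at 0.706 and -0.33. Those relations therefore rested on that array. Foxc1 and Foxc2 had r = 0.0889 over 6 arrays, rho = 0.371, with exact permutation p = 0.84 and 0.497, adjusted to 0.993 and 0.926, and 0.121 without the dim array. Of the 45 pairs, 19 changed the sign of r when the 2 farthest arrays were left out, and without the dim array 38 were above 0 with a median of 0.473.

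**Figure D4:**
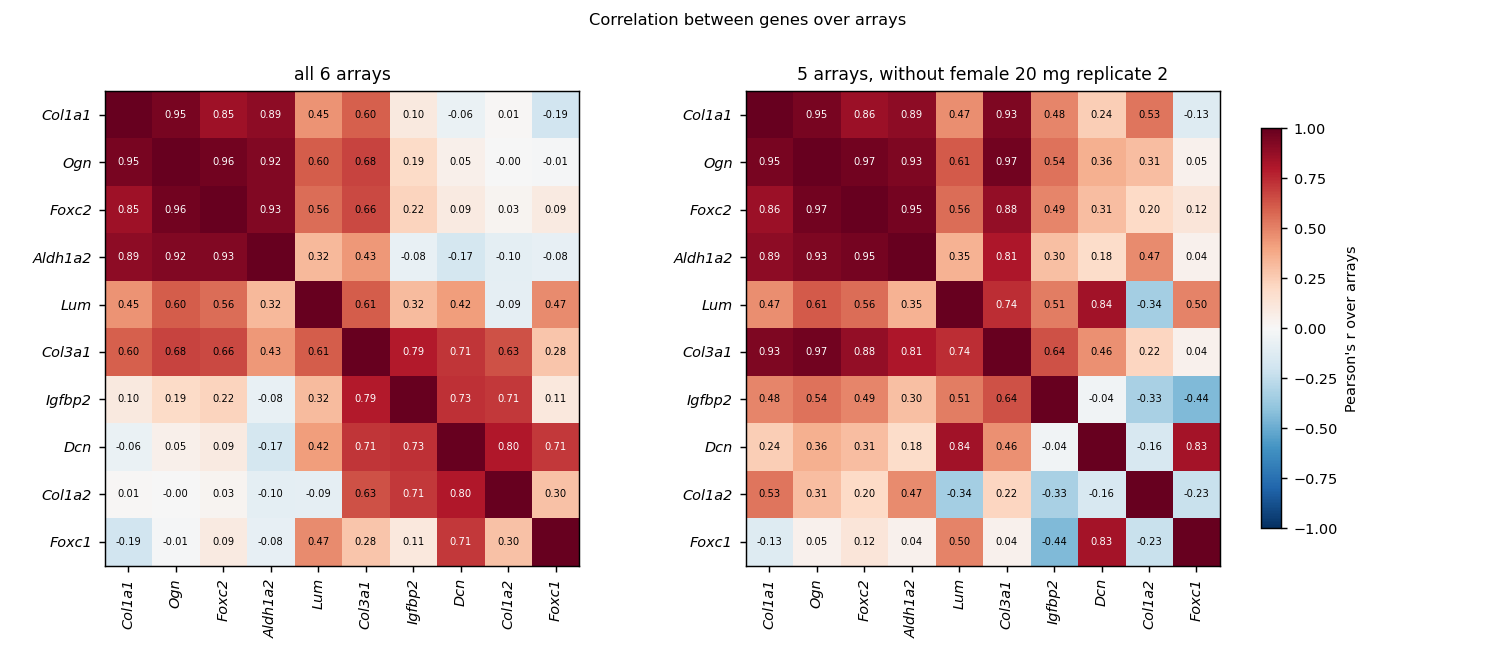
Pearson's r between each pair of genes over all 6 arrays (left) and over 5 arrays without female 20 mg replicate 2 (right), with red for positive and blue for negative r. Col1a1, Ogn, Foxc2 and Aldh1a2 form a block from 0.85 to 0.963 on the left, and Col1a1 with Col1a2 goes from 0.01 to 0.532.

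The mean of the members' deviations from their own means was 0.56 on male 20 mg replicate 1, where 7 of 10 members were at their highest, and -0.38 on male 20 mg replicate 2. It was 0.23 and 0.26 on the female and male 2 mg arrays, where no member was at its lowest, and -0.21 and -0.46 on the female 20 mg arrays. The 5 genes whose pattern was most like this profile, among 19194 well above background on at least 5 arrays, were ENSMUST00000153402, NAP111903-1, Mapk4, 5730480H06Rik and Dync1i2. Their r with it over the 6 arrays was 0.981 to 0.988, a description of 6 points, and 33 genes were above 0.95.

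Promoters of 6 of the 10 members were in the RefSeq table (GRCm38), as 7 windows. Those of Ogn and Aldh1a2, members that moved together at r = 0.924, are shown as the 250 bases before the start, both on the plus strand. Capitals mark any of 4 motifs searched, of which CCAAT was searched on both strands, then the GC box GGGCGG on both strands, then the forkhead core TAAACA on both strands, and last TATAAA on the coding strand.
Ogn (chr13:49607765-49608014): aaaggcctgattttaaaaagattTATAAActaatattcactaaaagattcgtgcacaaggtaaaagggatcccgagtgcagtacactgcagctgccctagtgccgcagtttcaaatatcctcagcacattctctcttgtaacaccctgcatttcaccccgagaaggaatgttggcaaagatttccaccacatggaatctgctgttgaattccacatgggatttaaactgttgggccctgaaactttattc
Aldh1a2 (chr9:71215539-71215788): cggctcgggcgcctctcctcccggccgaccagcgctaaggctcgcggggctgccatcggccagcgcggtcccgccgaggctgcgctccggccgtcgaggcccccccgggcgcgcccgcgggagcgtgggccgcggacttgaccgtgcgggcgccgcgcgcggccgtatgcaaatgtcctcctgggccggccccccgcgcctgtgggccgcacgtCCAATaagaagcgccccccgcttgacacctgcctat
Ogn held TATAAA 227 bases before the start and Aldh1a2 held CCAAT 36 bases before it, so these 2 windows shared none of the 4 motifs. Among the 7 windows CCAAT was in 3 (Aldh1a2, Col1a2, Foxc1) and in 33.8% of 32817 windows of that length, and GGGCGG was in 3 (Col1a2, Foxc1, Igfbp2) and in 32.7%. The forkhead core was in 2 (Col3a1, Igfbp2) and in 12.0%, and TATAAA in 2 (Col3a1, Ogn) and in 7.60%. In Col3a1 the forkhead core and the TATAAA overlap. A match of letters is a description and not a binding site.

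Other genes of the same cells and pathways were described by lists, of which Cxcl12, Crabp2 and Igf2 stood in more than 1. Of all probes, the 2.5-fold rule called 2.17% lower and 1.42% higher in males, and 10.3% lower and 8.65% higher in females. Without the dim array the female shares were 2.58% and 1.77%. The genes called in females were also read on female 20 mg replicate 1, the other female 20 mg array, by whether they were past 2.5-fold the same way there. Of 34 other meningeal and perivascular fibroblast genes, 1 was called lower by the 2.5-fold rule in males, and 3 lower and 2 higher in females, with median differences of 0.24 and -0.11. Of those 5 in females (Slc6a20a, Fbln2, Igf2, Slc47a1 and Col12a1), 0 were past it on female 20 mg replicate 1, where their differences ran from -0.82 to 0.17, against -4.93 to 3.21 on the dim array. Without the dim array 1 gene of the list was called (Fbln1, lower) and the median was -0.39. The one in males was Postn, encoding the matrix protein periostin, which stood at 9.41 at 2 mg and at 5.20 and 7.97 at 20 mg, a mean difference of -2.83 (adjusted p in limma 1). In females it stood at 9.03 at 2 mg, with differences of 0.75 and -2.98 on the 20 mg arrays. Of the 20 genes of collagen processing and cross-linking, 0 were called in males, and 1 lower (P4hb) and 2 higher (Leprel1 and Tgfb3) in females, with median differences of 0.29 and -0.30. On female 20 mg replicate 1 these 3 differed by -0.09, 0.48 and 0.36, so 0 were past the fold there, and without the dim array 0 of the list were called, with a median of -0.31.

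Of the 17 genes of the retinoic acid pathway other than Aldh1a2, 0 were called in males and 3 lower in females, with median differences of 0.17 and -0.23. Of these 3, only Cyp26b1 was past the fold on female 20 mg replicate 1, where Rdh10 and Stra6 differed by -0.05 and -0.89, and without the dim array 0 of the list were called, with a median of -0.09. Cyp26b1, which breaks down retinoic acid, stood at 13.42 on the female 2 mg array and at 12.02 and 10.96 on the female 20 mg arrays, with differences of -1.41 and -2.46 (adjusted p in limma 1). In males it differed by -0.18. Cyp26a1 and Cyp26c1 were not well above background on any array. Of the 15 genes of the insulin-like growth factor axis, 1 was called lower in males (Igfbp7) and 5 lower in females, with medians of -0.25 and -1.03. The female calls rested on the dim array: 0 of the 5 were past the fold on female 20 mg replicate 1, and Insr, Igfbp3 and Igfbp4 were higher there by 0.97, 0.98 and 0.83, against -4.30, -5.02 and -4.71 on the dim array. Without it 0 were called in females and the median was -0.16. The male call was lost without male 20 mg replicate 1, and the median was then -0.90 and Igf1 and Igf2 were called higher. Of 15 genes of the Cxcl12 axis and basement membrane, 0 were called in males and 3 lower in females, with medians of 0.03 and -0.88. Of those 3, 0 were past the fold on female 20 mg replicate 1, where Cxcr4 differed by -0.90, Hspg2 by -0.66 and Nid2 by 0.39, and without the dim array 0 were called, with a median of -0.19. In limma 0 genes of any list were called.

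Markers of neighbouring cell types were read on the same arrays. Of 10 choroid plexus markers, 4 were called higher in females and 0 in males, with a median difference of 2.53 in females, while the 10 fibroblast genes had -0.56. All 4 (Ttr, Aqp1, Kcne2 and Slc4a5) were past the fold on both female 20 mg arrays, and without the dim array 6 were called higher, with a median of 2.57. Ttr, encoding transthyretin, stood at 11.21 on the female 2 mg array and at 16.16 and 14.59 on the female 20 mg arrays, and Kcne2 and Slc4a5 were higher by a mean of 4.05 and 3.88 (adjusted p in limma 1 for each). A summed level adds the unlogged values of a list, so a single bright gene, as Ttr was at 20 mg, can set most of it. It is not a measure of cell number. The summed level of the choroid plexus list was 6331 and 27955 at 2 mg in females and males, 34704 to 82581 at 20 mg in females and 46435 to 49421 in males. That of the fibroblast members was 30009 and 32922 at 2 mg, 15591 to 24032 at 20 mg in females and 26413 to 42340 in males. The part of choroid plexus in the fibroblast values was not tested.

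Of 10 vascular endothelium markers, 4 were called lower in females and 0 in males, with medians of -0.46 and 0.34, among them Kdr and Cdh5, lower on both female 20 mg arrays with mean differences of -1.93 and -2.60 (adjusted p in limma 1 for each). The other 2, Tie1 and Flt1, differed by 0.16 and -0.25 on female 20 mg replicate 1 and by -3.99 and -7.82 on the dim array, without which 2 were called lower and the median was 0.01. Esam was higher on both female 20 mg arrays, by 0.73 and 1.03. Pecam1, Slco1a4 and Ly6c1 had mean differences of 0.54, 0.12 and 0.002 in females, and those of Cldn5 and Tek were -0.50 and -0.42. In males Kdr differed by -1.64 and 2.45 on the 20 mg arrays. The summed level of the endothelium list was 14266 and 12882 at 2 mg, 8519 to 9642 at 20 mg in females and 13051 to 26672 in males. On male 20 mg replicate 2 its brightest gene was Kdr, at 14.28. Of 10 markers of pericytes and smooth muscle, 4 were called lower in females and 1 in males, and Myh11 and Des were not well above background on any array. Tagln, encoding a smooth muscle actin-binding protein, stood at 12.92 at 2 mg and at 10.68 and 11.39 at 20 mg in females (adjusted p in limma 1). It was the 1 gene of these 4 past the fold on female 20 mg replicate 1, where Rgs5 differed by 0.72, Abcc9 by -0.53 and Cnn1 by -0.19, against -5.12, -3.08 and -2.77 on the dim array. Without the dim array the median of the list in females went from -1.22 to -0.38. The call in males was Tagln too, with differences of -3.59 and 0.60 on the male 20 mg arrays, and it was lost without male 20 mg replicate 1. The summed level of that list, in which Tagln was by far the brightest gene at 2 mg, was 10580 and 9068 at 2 mg. At 20 mg it was 3915 to 4056 in females and 4448 to 12801 in males.

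Of 10 cartilage and bone markers of the skull, 0 were called, and their summed level was 2052 and 2112 at 2 mg and 1848 to 3130 at 20 mg. Of 10 skeletal muscle markers, 1 was called lower in females (Myh3, with -0.55 on female 20 mg replicate 1 and -2.97 on the dim array), and Ckm and Mylpf were not well above background on any array. Red blood cell markers had a summed level of 97468 and 85252 at 2 mg and 30731 to 184396 at 20 mg. On male 20 mg replicate 1, where 7 fibroblast genes were highest, the median deviation of every list was above 0, from 0.19 in the retinoic acid pathway and 0.22 in red blood cells to 0.85 in the Cxcl12 axis and basement membrane, against 0.62 for the members and 0.14 for all probes well above background on at least 2 arrays. The part of these cells in the fibroblast values was not tested.

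**Figure D5:**
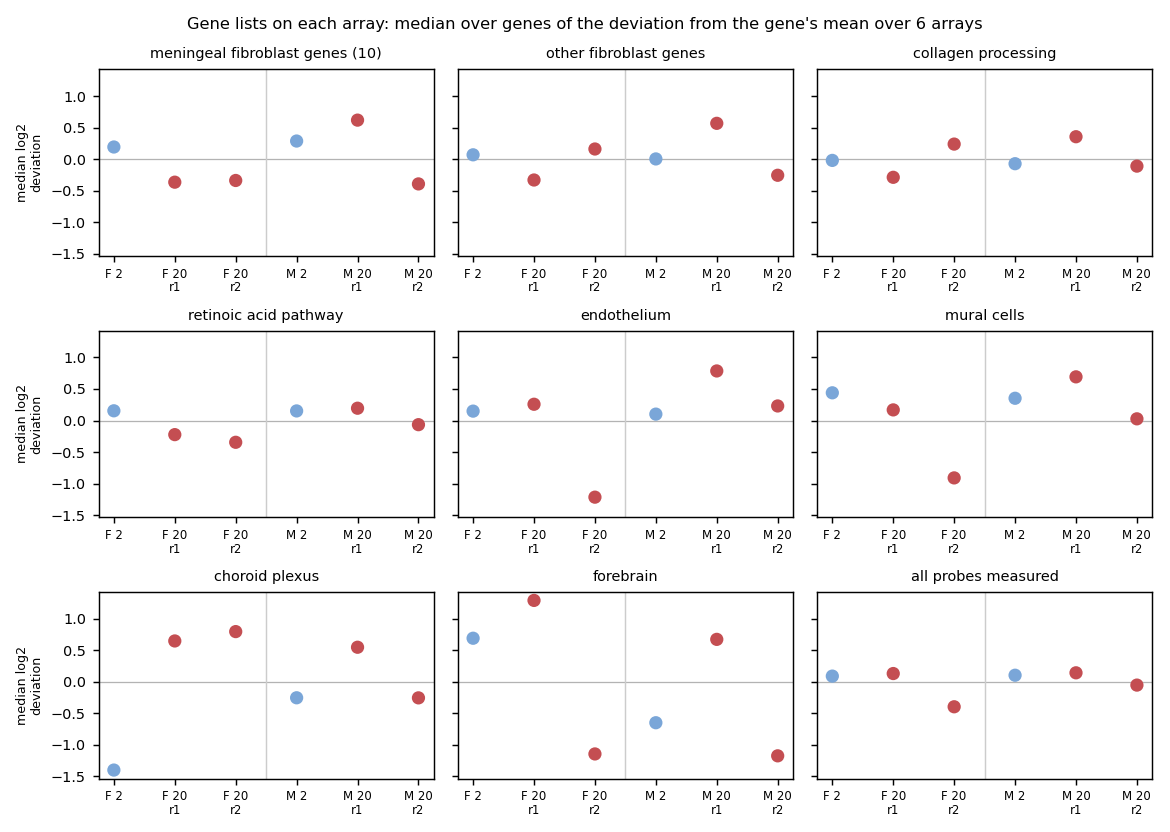
Median over the genes of each list of the log2 deviation from the gene's mean over 6 arrays, by array (F female, M male, 2 or 20 mg/kg FA, r replicate, blue 2 mg and red 20 mg). The fibroblast genes lie at 0.62 on male 20 mg replicate 1 and from -0.39 to -0.34 on the other 20 mg arrays, while choroid plexus markers go from -1.40 on the female 2 mg array to 0.65 and 0.80 on the female 20 mg arrays.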

How the data were processed

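RNA of cerebellum at P1 was measured on 6 single-colour arrays, grouped by sex and dose as labelled, each a pool of 3 pups. The limma p-values measure the spread between pools, which at 20 mg includes a second extraction batch, only in part. Each variance also draws on probes of like brightness, with 19.0 prior degrees of freedom beside 2 residual ones. The permutation p-values rest on the order of the arrays and do not measure that spread. Per the file headers and the labels, the authors made the intensities in the scanner files with Agilent Feature Extraction 10.7.3.1, which subtracts background. Before that the same deposited files give a mean and a local background intensity per spot. The log2 values of the authors' deposited table were quantile normalized and given a lowest value per array (in BRB-ArrayTools, by the methods), and all 55681 probes of it were matched. Its scale is log2, with medians of 6.49 on 5 arrays and 5.23 on the dim array, and rank correlations with the processed signals of 0.831 to 0.997.

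Here outlier spots were left out, processed signals averaged by probe and log2 transformed, then quantile normalized over 6 arrays and raised to 10 where lower. A gene is given by its brightest probe. The variation filter keeps probes whose variance has a chi-square p at or under 0.05 against the median variance, and the fold rule sets the mean of the 20 mg arrays against the 2 mg array of that sex at 2.5-fold, with no p. The limma fit (version 3.58.1, R 4.3.3) has 4 groups of sex and dose, an empirical Bayes step with trend, 2 residual degrees of freedom and only probes that 2 or more arrays measured well above background. The lone 2 mg array of a sex is assumed to vary like those at 20 mg. Tested on simulated data of the contrast over both sexes, with 37211 probes and a log2 change of 4 given to 200 of them, limma recovered 100% at a noise SD of 0.2 and 9.5% at 1.44. The SD of 1.44 lies above the median SD between the 20 mg pools over those probes, 0.73 in males and 1.04 in females. The recovery of 9.5% is therefore not that of a typical probe. Exact permutation tests used Python 3.11.15.

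The members, gene lists and tests were chosen with earlier results of these data known. The text names all 10 members, the genes of each list past 2.5-fold on every 20 mg array of both sexes (0 genes), otherwise up to 3 per list past it on both 20 mg arrays of 1 sex, and the 5 genes most like the mean profile. Other list genes named with their values on single arrays were chosen after their values were seen. Alternatives were a 75th percentile shift, the floor before normalization, normexp with an offset of 50, the deposited table, the mean of all probes, no variation filter, no filter on dim probes, slide or scan day as a term, the first slide alone and each array left out. The arrays of the later scan day alone, and the gene lists without each 20 mg array, were added after seeing the data. Probe positions are mm9. Promoters are from RefSeq (GRCm38), and no mm9 annotation was used here.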

Additional observations from a re-analysis of the deposited data

How the results depend on the processing

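The count of members called by limma was 0 under all alternatives run (47 counts), with the smallest adjusted p of a member between 0.475 and 1. The count past 2.5-fold in males was 0 as reported and 1 (Foxc1) without the variation filter and on the arrays of the later scan day alone, and leaving out each array gave 0 to 1, with 1 (Foxc1) without female 20 mg replicate 2. In females it was 0 as reported and 1 without the variation filter (Col1a2), and 1 under normexp background correction and in the deposited value table (Foxc2 in both), while leaving out each array gave 0 to 0. In the deposited table Foxc2 lies at the lowest value of the dim array, which is also the median of all probes on it. The cause of the other changes was not tested. No share of all probes in the same sex is given for the settings in which a member was counted.

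The median difference of the members ran from -0.67 to -0.47 in females, from -0.47 to 0.58 in males and from -0.61 to 0.05 over both sexes, where the male value was -0.47 without male 20 mg replicate 1 and 0.58 without male 20 mg replicate 2. The median pairwise correlation, 0.417, ran from 0.275 to 0.477 with 1 array left out, and 0.275 was without male 20 mg replicate 1. Of 220 values of single genes under the alternatives, 18 had the other sign. They fell in 10 of the 20 combinations of gene and sex.

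No paired analysis was possible because the 2 mg arrays carry no replicate number. With slide as a term, the differences within a sex and their dependence on sex could not be fitted, and with male or female 2 mg left out that sex has no difference. The signal over background of the dim array limits what its values can show for Lum, Ogn, Foxc1 and Foxc2.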
